A study of Homo sapiens with 26 samples.

Results

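The genes described here are regulators of the integrated stress response: ATF4, DDIT3 (which encodes CHOP), ATF3, TRIB3, PPP1R15A, CEBPB, CEBPG and NUPR1. They were chosen by gene symbol from a list of 9 that was drawn up with earlier results of these data known. Counts of regulators beside the share of all genes are thus descriptive. Of the 9, 8 were among the 17687 genes measured, and ATF5 was not analysed here. Each had 1 probe set. The data are total RNA levels from 26 microarrays with 1 colour each. The cells, 3 human lines from lung tumours, received Omomyc at 12.8 µM or phosphate-buffered saline (PBS) as the vehicle. Omomyc is a small protein derived from the basic helix-loop-helix leucine zipper region of MYC. It binds MAX, MYC and E-box DNA and thereby blocks MYC. NCI-H1975 (H1975), labelled a lung adenocarcinoma, had 4 PBS and 5 Omomyc arrays. A549 and NCI-H1299 (H1299), both labelled lung carcinoma, had 4 and 3, and 5 and 5. All cells grew in RPMI1640 with serum, and the treatment was added after a night in culture; how long the cells were exposed is not stated in the labels. No other protein served as a control, so what belongs to Omomyc and what any protein would do cannot be told apart. Levels are log2 intensities and changes are log2 differences, Omomyc minus PBS. Each line stands for 1 established cell line, and the arrays of a group are called biological replicas without further detail, so the p-values reflect the scatter among these arrays, which may be technical.

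In the integrated stress response, kinases that sense amino acid shortage, unfolded protein in the endoplasmic reticulum, double-stranded RNA or haem deficiency phosphorylate the translation factor eIF2. General protein synthesis then falls, while the mRNA of ATF4 is translated better. ATF4 is a basic leucine zipper (bZIP) factor that pairs with C/EBP proteins and activates genes of amino acid supply at elements called C/EBP-ATF response elements (CARE). Because ATF4 is controlled largely at translation, its mRNA level does not measure its protein. ATF4 also raises further regulators: CHOP and ATF3, which are bZIP factors themselves, TRIB3, a pseudokinase that restrains ATF4 and AKT, and PPP1R15A (GADD34), which brings a phosphatase to eIF2 and ends the response. CEBPB and CEBPG are C/EBP partners, and NUPR1 is a small stress-induced chromatin protein.

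RefSeq promoter windows (GRCh38.p14, 250 bases before to 50 after each start) were at hand for 7 of the 8 genes, all but NUPR1, and were searched on both strands for the CARE core TGATGNAA, the MYC-type E-box CACGTG and the cyclic AMP response element TGACGTCA, which do not contain one another. The CARE core occurred in ATF3 and CEBPG, 2 of 7 (28.6%), against 3.59% of 14250 measured genes, and in 3 of 10 enzyme genes of the same response (ASNS, MTHFD1L and CHAC1). The E-box occurred in ATF4, 1 of 7 (14.3%, against 10.8% of all genes), and the cyclic AMP element in PPP1R15A (14.3%, against 3.05%). Of the 10 enzyme genes, 2 held the E-box (20%, MTHFD1L and ALDH18A1) and 0 the cyclic AMP element. The endoplasmic reticulum stress element and the C/EBP letters TTGCGNAA were found in 0 of 7, against 0.14% and 1.42%. A match describes the letters, not a site in use. Only exact letters were searched, so near matches and elements outside the windows were not looked for, and a lack of a match does not show that an element is absent. The stretches of the regulators that hold a match, and of enzyme genes with the CARE core, are shown with the matched letters in capitals, together with part of the promoter of DDIT3, the member with the largest change, in which none of these letters were found. All are written along the gene's own strand, and ASNS, CHAC1 and MTHFD1L are shown as enzyme genes of the pathway; the E-box stretches of the enzyme genes are not shown.
ATF4, chr22:39520430-39520529, plus strand: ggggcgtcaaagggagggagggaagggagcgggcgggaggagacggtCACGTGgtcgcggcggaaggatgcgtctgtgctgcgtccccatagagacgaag
PPP1R15A, chr19:48872317-48872416, plus strand: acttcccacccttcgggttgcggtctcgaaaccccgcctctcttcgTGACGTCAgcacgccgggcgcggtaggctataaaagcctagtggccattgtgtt
ATF3, chr1:212565170-212565269, plus strand: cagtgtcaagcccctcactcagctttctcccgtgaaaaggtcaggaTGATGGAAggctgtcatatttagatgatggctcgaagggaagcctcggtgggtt
CEBPG, chr19:33374060-33374089, plus strand: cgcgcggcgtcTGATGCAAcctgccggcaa
ASNS, chr7:97872458-97872487, minus strand: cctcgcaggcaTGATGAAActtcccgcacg
CHAC1, chr15:40953221-40953320, plus strand: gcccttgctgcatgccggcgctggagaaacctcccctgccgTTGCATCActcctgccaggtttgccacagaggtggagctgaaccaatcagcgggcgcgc
MTHFD1L, chr6:150866346-150866375, plus strand: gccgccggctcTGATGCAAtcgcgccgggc
DDIT3, chr12:57520528-57520627, minus strand: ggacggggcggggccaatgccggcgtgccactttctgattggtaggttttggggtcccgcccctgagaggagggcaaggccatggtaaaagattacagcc
In CHAC1 the capitals are the CARE core read on the other strand.

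The arrays fell into 3 sets by the distribution of all their values (9, 10 and 7 arrays), here named runs 1, 2 and 3 although the labels give no such sets. Run 3 holds PBS but no Omomyc arrays of A549. The 23 background probe sets had mean levels of 2.35 to 6.69, and a gene below the upper of these has an uncertain level. AKR1B10, high in KEAP1-mutant A549 cells, stood at 17.10 in A549 PBS arrays against 3.75 in H1975 and 3.00 in H1299, and CDKN2A, deleted in A549, at 3.33 against 11.73 and 15.22. KRT8 and KRT18 were above background in all 3 lines, whereas KRT7, KRT19, EPCAM and CDH1 were below it in H1299, and CDH1 also in H1975. Of 7 measured markers of other cell types, PTPRC, CD3E, PECAM1, DCN and ALB had group means of at most 4.63; CD68 was above background in every line and rose in H1975 by 1.49 (limma adjusted p = 2.99e-05), and COL1A1 was above background in H1975 alone. The summed level of these 7 was 36.79 to 41.63 in H1975 PBS and 38.51 to 41.94 in H1975 Omomyc arrays, 30.96 to 32.58 and 30.82 to 33.52 in A549, and 33.69 to 40.32 and 35.06 to 39.89 in H1299, so the treatments overlapped in each line.

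**Figure D1:**
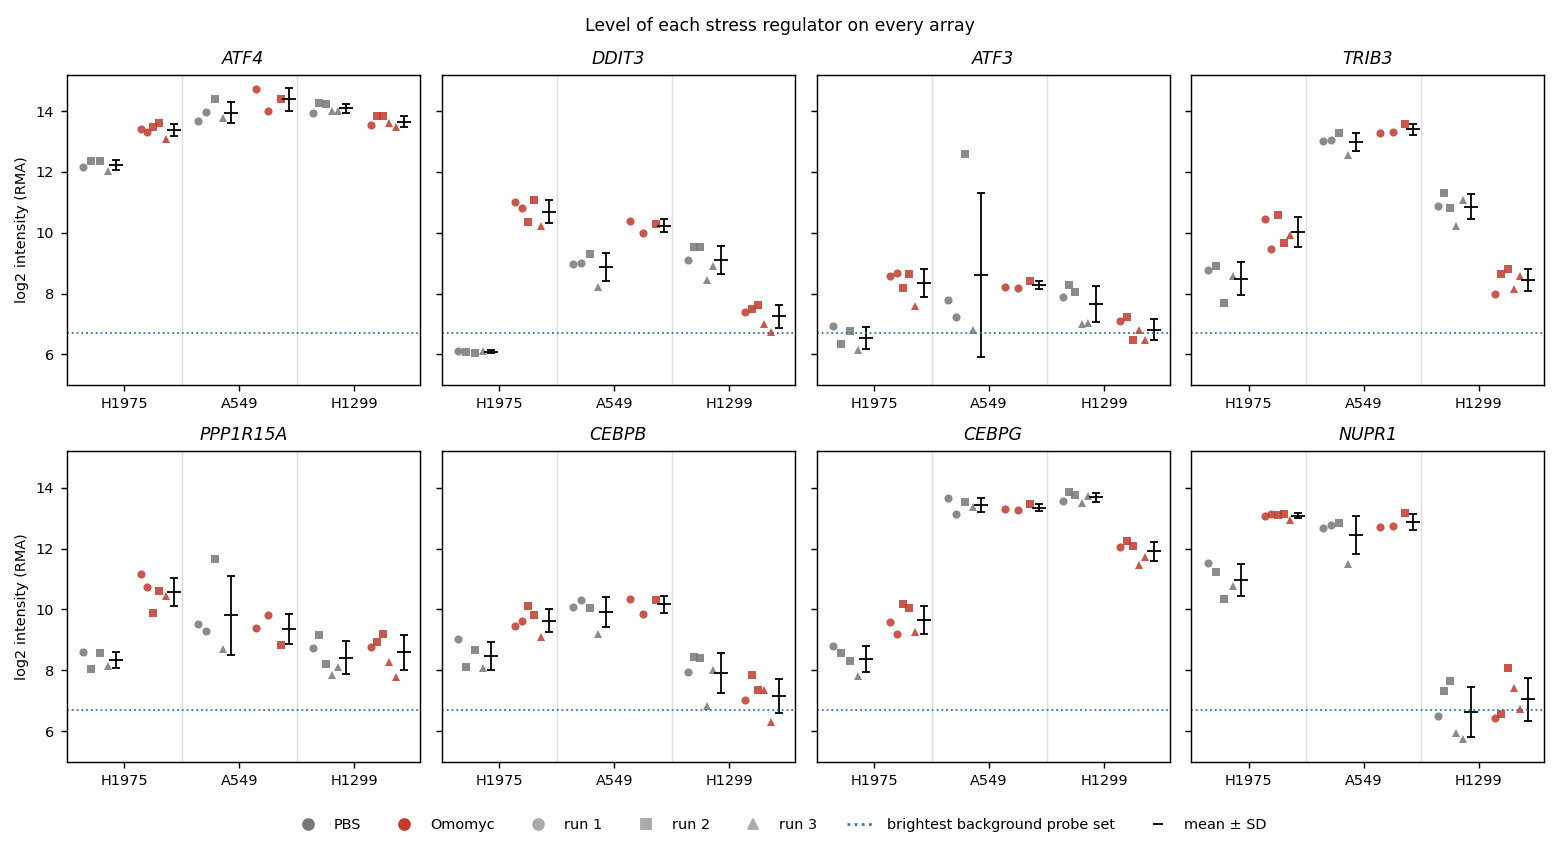
Log2 intensity of each of the 8 regulators (panels) on every array, by line and treatment; point shape gives the run, the bar beside each group its mean ± SD, and the dotted line the brightest background probe set (6.69). In H1975 every Omomyc point lies above every PBS point in all 8 panels, and in H1299 ATF4, DDIT3, TRIB3 and CEBPG show the opposite order without overlap.

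Under PBS alone, H1975 had lower regulator levels than A549, and the levels of A549 and H1299 were closer for ATF4, DDIT3 and CEBPG. All 8 genes differed between the 3 lines in limma's moderated F test (adjusted p from 2.79e-18 for CEBPG to 0.0378 for ATF3), where 56.1% of all genes did. Without A549 PBS replicate 3 the call of PPP1R15A was lost (adjusted p = 0.0772). ATF4 stood at 12.22 ± 0.16 (SD, n = 4) in H1975, 13.95 ± 0.33 (n = 4) in A549 and 14.09 ± 0.16 (n = 5) in H1299. H1975 was lower than A549 by 1.73 (adjusted p = 2.27e-08), while A549 minus H1299 was -0.14, with a 95% interval of -0.52 to 0.25. H1975 was thus the lowest line, and A549 and H1299 did not differ beyond their spread.

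CEBPG was far lower in H1975 than in the other lines. It was at 8.37 ± 0.42 in H1975, 13.43 ± 0.23 in A549 and 13.68 ± 0.15 in H1299, so H1975 was lower than H1299 by 5.31 ± 0.23 (SE, adjusted p = 8.95e-18). The A549 minus H1299 difference was -0.25 (95% interval -0.71 to 0.21). DDIT3 was at 6.09 ± 0.04 in H1975, under the brightest background probe set, against 8.88 ± 0.46 in A549 and 9.10 ± 0.46 in H1299; A549 minus H1299 was -0.22 (-0.73 to 0.29). For TRIB3 all 3 lines differed pairwise: 8.49 ± 0.55 in H1975, 10.86 ± 0.41 in H1299 and 12.97 ± 0.30 in A549, with adjusted p of at most 1.56e-07 for each pair.

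NUPR1 and CEBPB were lowest in H1299 rather than in H1975. NUPR1 was at 6.63 ± 0.83 in H1299, under the brightest background probe set, at 10.96 ± 0.53 in H1975 and at 12.45 ± 0.64 in A549, and all 3 pairs differed (adjusted p of at most 0.00227). CEBPB was at 7.92 ± 0.65 in H1299 and 8.47 ± 0.46 in H1975, a difference of 0.55 whose 95% interval (-0.10 to 1.20) includes 0, and at 9.91 ± 0.50 in A549, higher than both (adjusted p = 5.82e-06 against H1299 and 0.000806 against H1975).

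ATF3 and PPP1R15A in A549 rested on 1 array. ATF3 was at 7.80, 7.22, 12.59 and 6.80 on the 4 PBS arrays of A549, and PPP1R15A at 9.53, 9.29, 11.67 and 8.70; the third array, PBS replicate 3, was the high one for both. The immediate early genes FOS (13.84 against 5.43 to 6.69 on the other 3), JUNB (12.58 against 9.50 to 10.08) and JUN (11.12 against 8.64 to 9.0) were high on the same array; their part in these values was not tested. The H1975 minus A549 difference of ATF3 was -2.06 (adjusted p = 0.0175), and -0.73 without that array (adjusted p = 0.0811). That of PPP1R15A was -1.46 (adjusted p = 0.00699), and -0.84 without it (adjusted p = 0.0592). PPP1R15A in A549 was above H1299 by 1.39 (adjusted p = 0.00637), and by 0.76 without it (adjusted p = 0.0697). For H1975 minus H1299, ATF3 was at -1.10 (adjusted p = 0.195, and 0.0021 without the array).

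In all, 8 of 8 regulators were lower in H1975 than in A549, where 18% of all genes were, and 0 were higher (20.3%); without A549 PBS replicate 3 it was 6. Against H1299, H1975 was lower for 4 and higher for 1 (20.8% and 21.2% of all genes), and lower for 5 without that array. A549 was above H1299 for 4 (19% of all genes) and below for 0 (22.5%), and above for 3 without it.

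Of the 8 regulators 7 rose in H1975, where 5.57% of all genes did, and 0 fell (6.28% of all genes). In bulk RNA, more cells with a transcript and more transcript per cell cannot be told apart. The median change was 1.66, against 0.0038 over all genes. All 5 Omomyc arrays lay above all 4 PBS arrays for 8 of 8, which 5.18% of all genes showed, and wholly below for 0 (5.35%). DDIT3 moved furthest. It was at 6.11, 6.09, 6.04 and 6.13 on the PBS arrays and at 11.002, 10.80, 10.36, 11.08 and 10.24 on the Omomyc arrays. The PBS values were near-identical and at background, so the change of 4.61 ± 0.25 (SE, limma adjusted p = 4.13e-13) is uncertain in size; by p it ranked as number 2 of all genes. After Omomyc, the DDIT3 mean of H1975 (10.70) was the highest of the 6 groups.

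ATF4 itself moved less. Its PBS values were 12.15, 12.35, 12.36 and 12.03 and its Omomyc values 13.40, 13.32, 13.48, 13.60 and 13.09. The groups were tight and apart, and the rise was 1.15 ± 0.19 (adjusted p = 7.36e-05), a 2.23-fold difference. The Omomyc mean of 13.38 in H1975 was still under the PBS means of A549 and H1299. The C/EBP partner CEBPG went from 8.80, 8.56, 8.30 and 7.81 to 9.59, 9.18, 10.18, 10.03 and 9.27, a rise of 1.28 ± 0.23 (adjusted p = 0.000204). CEBPB went from 8.06 to 9.02 on PBS arrays to 9.11 to 10.11 on Omomyc arrays and rose by 1.16 ± 0.32 (adjusted p = 0.0146). Its call was lost without PBS replicate 2 (1.04, adjusted p = 0.0603) or PBS replicate 4 (1.02, adjusted p = 0.0602).

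The feedback genes of the pathway rose too. PPP1R15A was at 8.59, 8.05, 8.56 and 8.15 under PBS and at 11.17, 10.72, 9.89, 10.60 and 10.43 under Omomyc, a rise of 2.22 ± 0.41 (adjusted p = 0.000328). TRIB3 was at 8.79, 8.92, 7.69 and 8.56 and at 10.47, 9.47, 10.58, 9.65 and 9.92, a rise of 1.53 ± 0.27 (adjusted p = 0.000223). The lowest Omomyc array for TRIB3 stood above the highest PBS array. NUPR1 was at 11.54, 11.22, 10.33 and 10.76 and at 13.06, 13.13, 13.10, 13.14 and 12.94, a rise of 2.11 ± 0.36 (adjusted p = 0.000153); its Omomyc values spread little (SD 0.08) compared with its PBS values (SD 0.53).

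ATF3 did not pass the threshold in H1975 with all arrays in the fit. It was at 6.93, 6.33, 6.78 and 6.15 under PBS, around background, and at 8.57, 8.66, 8.18, 8.66 and 7.59 under Omomyc, without overlap. The difference was 1.79 ± 0.65 (adjusted p = 0.0762). The spread is estimated over all groups, and without A549 PBS replicate 3 the same difference had an SE of 0.28 and an adjusted p of 6.4e-05. With the run as a block the adjusted p was 0.0233.

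**Figure D2:**
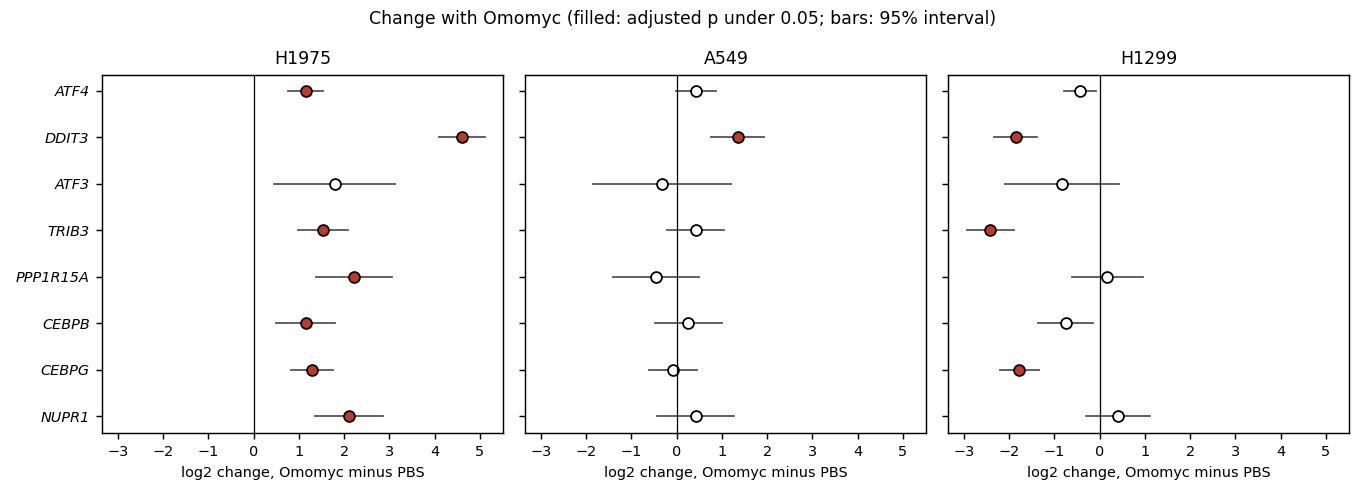
Log2 change, Omomyc minus PBS, of each regulator (rows) in each line (panels) with its 95% interval from the limma fit; filled points passed an adjusted p under 0.05. The points of H1975 all lie to the right of 0, with DDIT3 at 4.61, whereas in H1299 DDIT3, TRIB3 and CEBPG are filled points to the left.

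In A549, DDIT3 was the 1 regulator of 8 that rose, where 0.916% of all genes did, and 0 fell (0.277% of all genes). After quantile normalization 227 genes were higher and 124 lower in A549, against 162 and 49. DDIT3 was at 8.97, 9.01, 9.30 and 8.23 on PBS and at 10.40, 9.99 and 10.29 on Omomyc arrays, without overlap, a rise of 1.35 ± 0.28 (adjusted p = 0.00909). The call was lost without PBS replicate 4, the lowest PBS array (1.13, adjusted p = 0.0573), without Omomyc replicate 1 (1.26, adjusted p = 0.0703) or 3 (1.31, adjusted p = 0.0507), and in a fit on A549 alone (adjusted p = 0.0709). PBS replicate 4 was in run 3, which holds no Omomyc arrays of A549. The call of DDIT3 was kept with the run as a block (1.21, limma adjusted p = 0.000838) and with the replicate block (1.13, adjusted p = 0.0137). Without PBS replicate 3 it was kept as well (1.49, adjusted p = 0.00699). TRIB3 was the other gene of 2 without overlap (5.79% of all genes lay wholly above and 3.6% wholly below, the latter with 0 regulators), at 12.57 to 13.28 under PBS and 13.29 to 13.59 under Omomyc, a difference of 0.42 (95% interval -0.21 to 1.05, adjusted p = 0.838).

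The other regulators of A549 overlapped between treatments. ATF4 was at 13.66, 13.98, 14.41 and 13.76 and at 14.74, 13.99 and 14.41, a difference of 0.43 with a 95% interval of -0.01 to 0.87 (adjusted p = 0.582). CEBPG differed by -0.08 (-0.61 to 0.45), CEBPB by 0.26 (-0.48 to 1.00) and NUPR1 by 0.42 (-0.42 to 1.27). For ATF3 and PPP1R15A the direction turned with PBS replicate 3: ATF3 was at -0.33 with it and 1.00 without it (adjusted p = 0.986 and 0.235), and PPP1R15A at -0.45 and 0.17 (adjusted p = 0.921 and 0.96). The median change of the 8 was 0.34, against 0.042 over all genes. With 4 and 3 arrays, the intervals of this line are the widest of the 3.

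In H1299, 3 of the 8 regulators fell, where 4.52% of all genes did, and 0 rose (4.35%). These were TRIB3, DDIT3 and CEBPG. The Omomyc arrays lay wholly below the PBS arrays for 4 of 8 (4.09% of all genes), ATF4 being the other, and wholly above for 0 (3.91%). The median change was -0.79, against 0.0018 over all genes. TRIB3 moved furthest, from 10.87, 11.31, 10.83, 10.21 and 11.08 under PBS to 8.0, 8.66, 8.82, 8.15 and 8.58 under Omomyc. The gap between the groups exceeded the range of either, and the change was -2.42 ± 0.26 (adjusted p = 2.35e-07), a 5.33-fold decrease.

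DDIT3 in H1299 went from 9.11, 9.52, 9.54, 8.44 and 8.90 to 7.40, 7.48, 7.62, 7.01 and 6.72, a change of -1.85 ± 0.23 (adjusted p = 3.94e-06). All 5 Omomyc values were above the brightest background probe set, the lowest by little. CEBPG went from 13.58, 13.84, 13.77, 13.48 and 13.73 to 12.05, 12.24, 12.07, 11.45 and 11.72, a change of -1.77 ± 0.21 (adjusted p = 1.54e-06). It is the regulator with the tightest PBS group in this line (SD 0.15).

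ATF4 in H1299 was at 13.92, 14.28, 14.22, 14.02 and 13.99 under PBS and at 13.53, 13.84, 13.83, 13.61 and 13.46 under Omomyc. Each Omomyc array was below each PBS array, but by little, and the difference of -0.43 ± 0.18 had an adjusted p of 0.147; with the run as a block it was 0.0406. CEBPB differed by -0.75 ± 0.30 (adjusted p = 0.134), and its adjusted p was 0.0209 with the run as a block and 0.0197 without PBS replicate 4 (-1.03). ATF3 differed by -0.83 ± 0.61 (adjusted p = 0.549), and by as much with an adjusted p of 0.0489 without A549 PBS replicate 3. With the run as a block 5 of the 8 fell, where 8.17% of all genes did.

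PPP1R15A and NUPR1 had small positive differences in H1299, and neither passed. PPP1R15A was at 7.85 to 9.17 under PBS and 7.76 to 9.20 under Omomyc, nearly the same range, with a difference of 0.17 (95% interval -0.62 to 0.96). NUPR1 was at 5.75 to 7.65 and at 6.42 to 8.08, around background in both, with a difference of 0.41 (-0.29 to 1.11).

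**Figure D3:**
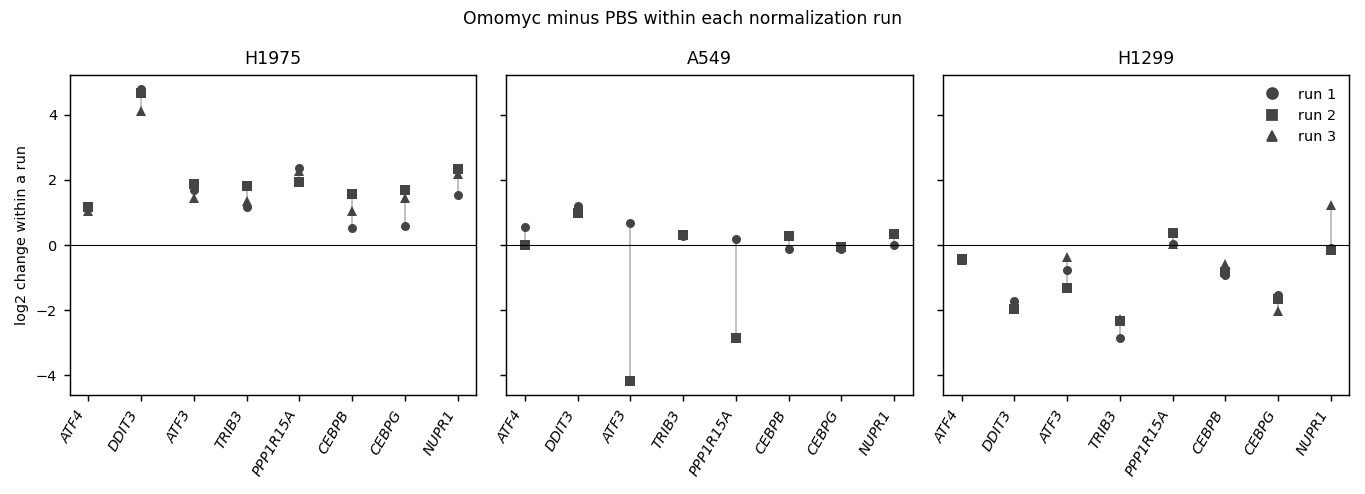
Log2 change, Omomyc minus PBS, computed within each run (point shape) for each regulator and line; A549 has runs 1 and 2 only. DDIT3 lies between 4.11 and 4.79 in H1975, between 0.99 and 1.2 in A549 and between -1.97 and -1.71 in H1299, while ATF3 and PPP1R15A of A549 part between runs.

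Within the runs, the changes of H1975 and H1299 kept their sign, except that of NUPR1 in H1299. In H1975 all 8 regulators were positive in each of 3 runs, ATF4 by 1.05 to 1.22, PPP1R15A by 1.94 to 2.36 and NUPR1 by 1.55 to 2.34. The widest ranges were those of CEBPG, 0.58 to 1.68, and CEBPB, 0.52 to 1.57. In H1299, ATF4 was negative in 3 of 3 runs, by -0.47 to -0.39, TRIB3 by -2.87 to -2.27 and CEBPG by -2.02 to -1.53, while NUPR1 ranged from -0.16 to 1.23. In A549, with PBS replicate 3 as the single PBS array in run 2, ATF3 was at 0.69 in run 1 and -4.16 in run 2, and PPP1R15A at 0.20 and -2.85.

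The response differed between the lines for 7 of the 8 regulators by the moderated F test of both interaction contrasts, which 8.18% of all genes passed. The exception was ATF3 (adjusted p = 0.137), which passed without A549 PBS replicate 3 (adjusted p = 0.000136), with the run as a block (0.0329) and with the replicate block (0.0195). NUPR1 passed narrowly (adjusted p = 0.0419), and 19 of the 26 fits that left out 1 array lost its call, with adjusted p of up to 0.118. Without A549 PBS replicate 3 the adjusted p of NUPR1 was 0.0556. In the same F test it was 0.00609 with the run as a block and 0.0061 with the replicate block. The contrast of H1975 with H1299 was the largest. There the change was higher in H1975 for 7 of 8 (2.61% of all genes) and lower for 0 (3.09%), by 6.46 ± 0.34 for DDIT3 (adjusted p = 2.46e-13), 3.94 ± 0.37 for TRIB3 (2.56e-08), 3.06 ± 0.31 for CEBPG (1.03e-07) and 1.59 ± 0.26 for ATF4 (0.000148). PPP1R15A (2.05), CEBPB (1.91) and NUPR1 (1.70) followed, and ATF3 was at 2.62 (adjusted p = 0.0878, and 5.42e-05 without A549 PBS replicate 3).

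The change in H1975 exceeded that in A549 for 3 of 8 (1.92% of all genes) and fell short of it for 0 (2.7%): DDIT3 by 3.26 ± 0.38 (adjusted p = 2e-06), PPP1R15A by 2.68 ± 0.62 (adjusted p = 0.00896, and 2.05 with adjusted p = 0.0112 without A549 PBS replicate 3) and CEBPG by 1.36 ± 0.34 (adjusted p = 0.0165). For ATF4 the difference of 0.72 had a 95% interval of 0.14 to 1.30 and an adjusted p of 0.168, or 0.0286 with the run as a block. NUPR1 was at 1.69 (adjusted p = 0.0791, and 0.0122 with the run as a block). The change in A549 exceeded that in H1299 for 3 of 8 (1.4% of all genes) and was lower for 0 (1.07%); the 3 were DDIT3 (3.20 ± 0.37), TRIB3 (2.84 ± 0.40) and CEBPG (1.69 ± 0.33). ATF4 differed there by 0.86 (0.30 to 1.43, adjusted p = 0.104, and 0.0275 with the run as a block). Without A549 PBS replicate 3, ATF4 (1.01, adjusted p = 0.0484) and ATF3 (1.84, adjusted p = 0.0225) passed this contrast as well. These contrasts share arrays pairwise and are not independent of one another.

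The regulators were set beside the enzymes of the same response, a list of 15 genes of asparagine, serine, proline and cysteine synthesis, mitochondrial folate metabolism and glutathione breakdown, of which 14 were measured. In H1975, 6 of 14 enzymes rose, where 5.57% of all genes did, and 1 fell (6.28%). Their median change was 0.73, against 1.66 for the regulators, of which 7 of 8 rose. PHGDH, the first enzyme of serine synthesis, rose by 2.63 ± 0.27 and ASNS, asparagine synthetase, by 2.14 ± 0.28. ALDH1L2 (2.41) and MTHFD2 (1.33) of mitochondrial folate metabolism, the mitochondrial PEP carboxykinase PCK2 (1.85) and the cystathionine gamma-lyase CTH (1.41) rose too, CTH from a PBS level below background (5.70), so that its size is uncertain. PSPH, which makes serine from phosphoserine, fell by 0.97 (adjusted p = 0.0143). PSAT1 (0.03), CBS (0.04), ALDH18A1 (0.22), CHAC1 (0.52), SHMT2 (0.57), PYCR1 (0.70) and MTHFD1L (0.75) did not pass, and CHAC1, a glutathione-degrading enzyme and CHOP target, was below background in both groups (5.30 and 5.83).

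In H1299 the enzymes had the larger median change. Of 14, 11 fell, where 4.52% of all genes did, and 1 rose (4.35%). Their median was -1.85, against -0.79 for the regulators, of which 3 of 8 fell. CHAC1 went from 13.52 to 9.21, a change of -4.31 ± 0.37 (adjusted p = 9.86e-09). PCK2 (-2.46), ALDH1L2 (-2.45), ASNS (-2.40), PSAT1 (-2.37), CBS (-2.26) and PHGDH (-2.25) fell by similar amounts, and MTHFD1L (-1.44), PSPH (-1.17), MTHFD2 (-0.95) and SHMT2 (-0.89) by less. CTH rose by 0.95 from under the brightest background probe set (5.53) to a level still below it (6.47). ATF4 stood at -0.43, a smaller estimate than those of the 11 enzymes that fell. Both lists were described side by side, and no test was made between them.

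In A549, 3 of 14 enzymes rose, where 0.916% of all genes did, and 0 fell (0.277%). Those that rose were ALDH1L2 (1.36), PYCR1 (1.48, limma adjusted p = 0.0452) and CTH (1.27). The enzyme median was 0.35, near the 0.34 of the regulators, of which 1 of 8 rose. Leaving out Omomyc replicate 1, 2 or 3 left 1 enzyme called each time. CTH was below background in both groups of A549 (4.88 and 6.16), so its call and size are uncertain. ASNS was at 0.10 and CHAC1 at -0.04. Between lines, the change of 11 of 14 enzymes was higher in H1975 than in H1299 (2.61% of all genes), ASNS by 4.54 and PHGDH by 4.88. That of 10 of 14 was higher in A549 than in H1299 (1.4% of all genes).

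**Figure D4:**
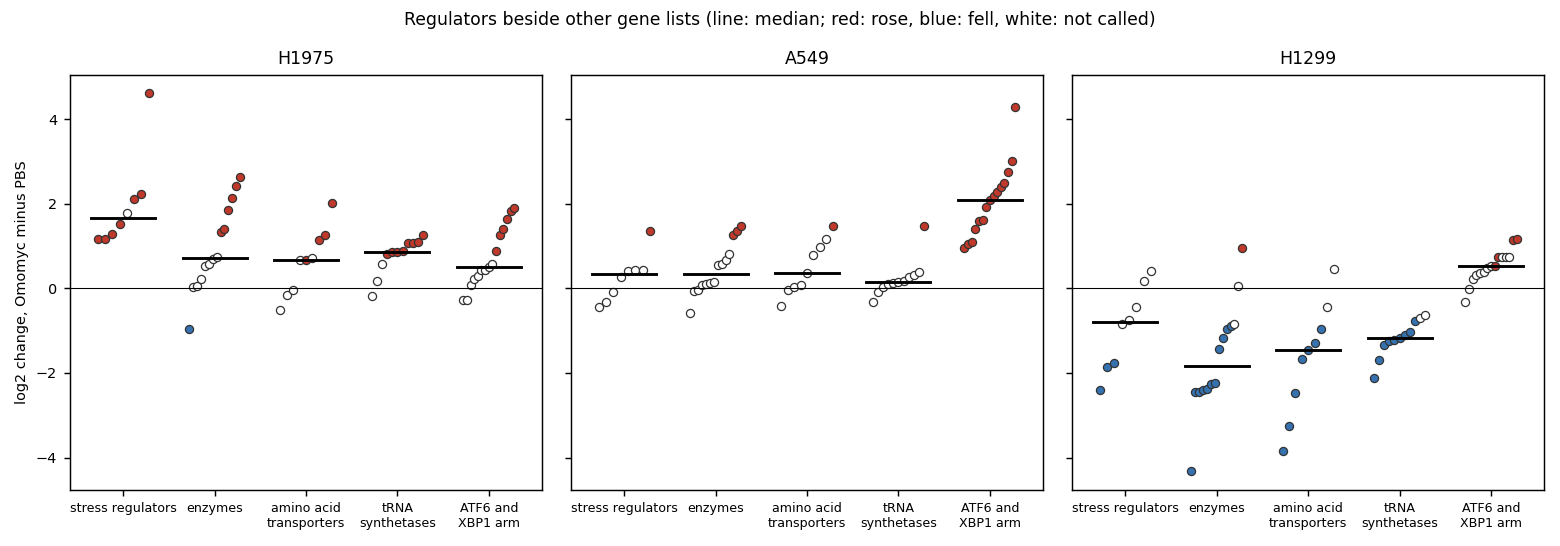
Log2 change, Omomyc minus PBS, of every measured gene of 5 lists (columns) in each line (panels); the thick line is the list's median, and red, blue and white points rose, fell or were not called. The median of the regulators is 1.66, 0.34 and -0.79 in H1975, A549 and H1299, that of the enzymes 0.73, 0.35 and -1.85, and that of the ATF6 and XBP1 arm 0.50, 2.08 and 0.54.

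Other ATF4-linked lists had the same signs. Of all genes, 5.57% rose and 6.28% fell in H1975, 0.916% and 0.277% in A549, and 4.35% and 4.52% in H1299. Of 9 amino acid transporter genes, 4 rose in H1975 and 7 fell in H1299, with medians of 0.67 and -1.46; the cystine transporter gene SLC7A11 was at 2.01 and -3.84 and the leucine transporter gene SLC7A5 at 1.25 and -3.26. Of 11 tRNA synthetase genes, 8 rose in H1975 and 9 fell in H1299, with medians of 0.87 and -1.16, AARS1 being at 1.26 and -1.34. In A549, 1 transporter, SLC43A1 (1.48), and 1 synthetase, WARS1 (1.47), rose. Of both lists, 0 genes fell in H1975 and 0 rose in H1299; some that did not pass had the other sign, such as SLC6A9 in H1975 (-0.50) and SLC43A1 in H1299 (0.45).

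The genes of the ATF6 and XBP1 arm of the unfolded protein response, chaperones and degradation factors of the endoplasmic reticulum, were ordered differently over the lines. All 15 measured rose in A549 (0.916% of all genes), with a median of 2.08, where DDIT3 was the 1 regulator called. In H1975 6 of 15 rose (5.57% of all genes, list median 0.50). In H1299 4 of 15 rose (4.35% of all genes, list median 0.54). In both lines 0 fell (6.28% and 4.52% of all genes). The change was lower in H1975 than in A549 for 8 of 15 (2.7% of all genes) and higher for 0 (1.92%). It was higher in A549 than in H1299 for 11 of 15 (1.4%) and lower for 0 (1.07%). The chaperone gene HSPA5 (BiP), at 1.26, 1.41 and -0.02 in H1975, A549 and H1299, changed by similar amounts in H1975 and A549.

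Of the 14 genes upstream of ATF4, the eIF2 kinases, phosphatase subunits, eIF2 and eIF2B, 3 were called in H1975, 1 in A549 and 3 in H1299, where 11.8%, 1.19% and 8.87% of all genes were called. EIF2AK3, which encodes the endoplasmic reticulum kinase PERK, rose in each line, by 0.93 ± 0.26 (adjusted p = 0.0148) in H1975, 1.57 ± 0.29 (0.00283) in A549 and 1.18 ± 0.24 (0.00145) in H1299. In H1975 EIF2AK1, the haem-regulated kinase gene (0.55), and PPP1R15B, the constitutive partner of PPP1R15A (0.99), also rose, and in H1299 EIF2B2 rose (0.63) and EIF2S1, eIF2 alpha, fell by 0.72. The kinase gene EIF2AK4 (GCN2), which senses uncharged tRNA, was at -0.27 in H1975 and -0.25 in A549 and passed in neither. Kinase activity was not measured.

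For the lists that follow, the shares of all genes that rose and fell were 5.57% and 6.28% in H1975. They were 0.916% and 0.277% in A549, and 4.35% and 4.52% in H1299. Among 19 other bZIP genes, 4 rose in H1975 and 0 fell. The 4 were NFE2L2 (0.72), XBP1 (0.89), CEBPD (0.67) and ATF6 (0.52). In H1299 JUN (-1.88) and JDP2 (-2.31) fell, and in A549 JUNB fell by 2.08, with the high PBS array described above. Of 8 genes listed as linked to CHOP, cell death or growth arrest, 4 rose in H1975, among them GADD45A (2.52) and CDKN1A (1.63). In H1299 4 fell, among them SESN2 (-3.30) and DDIT4 (-2.36), and 2 rose, BCL2L11 (1.52) and CDKN1A (1.10). In A549 0 of the 8 passed in limma's test, of which DDIT4 was at -0.23. Of 6 secreted factors, 4 rose in H1975, IL24 by 6.40 and GDF15 by 5.23, and in H1299 2 fell, STC2 by 2.74 and VEGFA by 1.18. IL24 in H1975 started below background (4.09 under PBS) and STC2 in H1299 ended there (6.17 under Omomyc), so the sizes of both changes are uncertain.

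Genes like ATF4 and DDIT3 were sought by Pearson correlation over the 26 arrays. The search left out the regulators themselves and covered 10416 genes with at least 1 group mean above the median of all values. Most like ATF4 were MTHFD2 (r = 0.926), PTP4A2 (0.914), GSDME (0.912), PHGDH (0.904) and EXOSC5 (0.886). Those most like DDIT3 were ALDH1L2 (0.845), CA5B (0.84), CHMP1B (0.831), IFRD1 (0.816) and GDF15 (0.774). The arrays share lines, treatments and runs, so these values describe a shared pattern and carry no test. Of the 10, ALDH1L2, MTHFD2 and PHGDH are enzymes of the list above, and these 3 rose in H1975 and fell in H1299. CHMP1B was at 2.35 in H1975 but at 0.14 in H1299 (adjusted p = 0.836), and GDF15 at 5.23 and 0.01.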

How the data were processed

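The authors deposited log2 values of 24351 features on 26 arrays; per the submitters' processing notes RMA and Partek were used (no versions given), and it is not stated if 1 normalization covered every array. The values span 1.35 to 19.91, which is wide for RMA, and folds here take them as log2 without further check. The 17709 features with 1 gene symbol (0 had several, 6642 none) gave 17687 genes, named through Entrez IDs; the probe set with the highest mean was used. Arrays were grouped by their labels. limma 3.58.1 in R 4.3.3 fitted 1 coefficient per group to all 26 arrays (20 residual degrees of freedom), and p-values were Benjamini-Hochberg adjusted over all genes and called under 0.05. The replicate block was checked by the correlation of same-numbered arrays' deviations. The values were 0.26 to 0.39 in H1299 and 0.11 to 0.20 in A549, all over 0.1, but -0.20 to 0.33 in H1975. All such pairs of A549 and H1299 shared a run. In H1975 the pairs within a run were at 0.33 and 0.03, the others at -0.15 and -0.20. A shared run and a true pairing thus cannot be told apart. Runs were average-linkage clusters of sorted array values. No 2 of 45 same-group pairs of arrays were identical. On simulated data with 17687 genes, 93%, 91% and 97% of genes changed by 2 were called in H1975, A549 and H1299, and 42%, 33% and 55% of those changed by 1. The simulated noise was independent between genes and arrays and held no shifts between runs, so these shares need not hold for the real arrays. Members and lists were chosen with earlier results of these data known. Named were the 8 regulators, the enzymes, up to 3 genes of each other list by p in a line, the 5 genes most like ATF4 and DDIT3, reference and marker genes; ATF6, EIF2AK4, FOS and, with the other sign, SLC6A9 and SLC43A1 fall outside that rule and were chosen after their values were seen. The alternatives tried were other normalizations, a filter on genes under the 30th percentile, means of probe sets, trend and robust settings, array weights, the line alone, runs and replicate numbers as blocks, each run alone, stricter thresholds and leaving out each array. Protein sequences were not used here.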

Additional observations from a re-analysis of the deposited data

Results flagged for a closer look

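NUPR1 was at 11.50 on PBS replicate 4 of A549, and its 3 fellow arrays at 12.68 to 12.83, a gap of 0.886 of the group's range. Chance flags about 1 in 20 groups, and 40 were tested. PBS replicate 4 was also the 1 array of this group in run 3, so array and run cannot be told apart. The response to Omomyc differed between the 3 lines in the moderated F test (limma) for ATF4 (adjusted p = 0.000446), DDIT3 (1.56e-12), TRIB3 (6.91e-08), PPP1R15A (0.00828), CEBPB (0.0151), CEBPG (3.69e-07) and NUPR1 (0.0419). For ATF4, DDIT3, TRIB3, CEBPB and CEBPG the change was positive in H1975 and negative in H1299. In H1299 those of ATF4 and CEBPB did not pass (limma adjusted p = 0.147 and 0.134).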

How the results depend on the processing

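Of the 24 changes (8 regulators in 3 lines), none that was called changed sign under any alternative tried; the signs that turned belong to ATF3, PPP1R15A, CEBPB, CEBPG and NUPR1 in A549 and NUPR1 in H1299. In A549, ATF3 (-0.33) was at 0.036 with array weights, 0.69 on run 1 alone and 1.00 without PBS replicate 3, PPP1R15A at 0.20 and 0.17 on run 1 alone and without that array, CEBPB at -0.11 and NUPR1 at -0.012 on run 1 alone, and CEBPG at 0.0010 without PBS replicate 1; leaving out 1 array each gave -0.93 to 1.00 for ATF3, -0.82 to 0.17 for PPP1R15A and -0.17 to 0.0010 for CEBPG. NUPR1 in H1299 was at -0.092 and -0.16 on runs 1 and 2 alone. Counts of called regulators ranged over 6 to 8 (H1975), 0 to 1 (A549) and 3 to 4 (H1299) when 1 array was left out, counts of enzymes over 6 to 8, 1 to 3 and 12 to 13, counts of differing responses over 6 to 7 and of differing PBS levels over 7 to 8. On run 1 alone 4, 0 and 1 regulators and, in A549 and H1299, 0 and 5 enzymes were called, and 2 responses differed. Run 2 alone, with 1 PBS and 1 Omomyc array of A549, gave 0 enzymes and 2 regulators there, which fell (ATF3 by 4.16 and PPP1R15A by 2.85), while DDIT3 was not called (0.99, adjusted p = 0.41). In H1299 run 3 alone gave 3 regulators that fell and 1 that rose, NUPR1 (1.23, adjusted p = 0.0346). Run 3 alone gave 4 enzymes in H1975 and 5 differing PBS levels. The fit on A549 alone gave 0 and 0, and the run as a block gave 5 regulators in H1299. The replicate block gave 8, 1 and 3 regulators and 9, 2 and 13 enzymes in H1975, A549 and H1299, and ATF3 in H1975 passed with it (1.97, adjusted p = 0.015), although the numbers do not pair arrays in that line. Runs alone often hold 1 array of a group and fewer degrees of freedom. Run 3 could not be fitted for A549 responses or differences in response, the replicate block not for PBS levels, and the line alone not for comparisons between lines. Over all genes, the counts called were 2889 after quantile normalization and 3400 with the run as a block against 2095 in H1975, 351 and 502 against 211 in A549, and 2292 and 2812 against 1569 in H1299. The number of arrays and the background level of 6.69 limit what can be read for DDIT3 and ATF3 in H1975 and NUPR1 in H1299.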
